A study of Mus musculus with 6 samples.

Results

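The genes described here are 42 genes of hepatic stellate cells and of the extracellular matrix, taken by name from a list that runs from stellate markers through collagens to transforming growth factor beta (TGF-beta) and platelet-derived growth factor (PDGF) signals. A gene was represented by the probe set with the highest mean over the arrays, among probe sets annotated to that gene alone. A value was found for 41 of the 42 genes, out of 18193 genes on the array, with Ctgf matched through its Entrez number under its newer name, Ccn2, and Fbn1 not analysed here. Of the 41 genes, 38 had a mean log2 signal above the 40th percentile of all probe sets and entered the gene test, which covered 12705 genes. Des, Lox and Timp1 lay below that level.

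Liver RNA came from 3 mice that carry a Retnla transgene (Retnla-Tg; mice 5, 6 and 7) and 3 mice that do not (Retnla-non-Tg; mice 1, 2 and 3). All were male, of the C57BL6/J background and 3 months old, and had been moved at 8 weeks of age to a high-fat diet with 21% fat and 0.15% cholesterol, which they ate for 4 weeks. Each mouse gave 1 array, and no group on another diet was part of the series as analysed here. Which promoter drives the transgene is not given in the sources used here. Secreted by alternatively activated macrophages among other cells, the product of Retnla, resistin-like molecule alpha, circulates in blood. Its log2 signal was 16.04, 15.91 and 16.04 in Tg livers and 6.03, 7.41 and 6.48 in non-Tg livers, which matches the labels.

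Stellate cells lie between the hepatocytes and the sinusoidal endothelium, where they store vitamin A and, in health, secrete little matrix. After liver injury they turn into contractile myofibroblasts under TGF-beta and PDGF, switch on smooth muscle actin, and lay down fibrillar collagen that lysyl oxidases crosslink and metalloproteinases and their inhibitors remodel. Several genes of the list are also made by other liver cells: hepatocytes make most liver fibronectin and much collagen XVIII, vascular smooth muscle makes contractile proteins, and endothelium makes basement membrane collagen. In RNA from whole liver, fewer cells of a type and less RNA per cell cannot be told apart.

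No gene of the list passed the limma test between Tg and non-Tg livers at an adjusted p of 0.05, in a comparison where 2 of 12705 genes were called higher (0.0157%) and 0 lower (0%). With each gene's own variance in place of the moderated one, 0 of all 12705 genes passed, Retnla included, so that setting could call nothing here. At an unadjusted limma p under 0.05 stood 8 of the 38 genes, 21.1% against 6.05% of all genes tested. Of these, 6 were lower in Tg livers (Reln, Gas1, Col14a1, Fn1, Timp2 and Pdgfra) and 2 higher (Rgs5 and Acta2), where 3.12% and 2.93% of all genes lay on those sides. That count fell to 3 without non-Tg 2 (7.89%, against 3.69% of all genes) and to 3 without non-Tg 3 (7.89%, against 4.25%), and it was 4 with each gene's own variance (10.5%, against 5.75%). It was 11 without non-Tg 1 (28.9%, against 8% of all genes), 11 without Tg 7 (28.9%, against 9.39%) and 12 with arrays weighted by their quality (31.6%, against 7.69%).

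The groups did not overlap for 7 of the 38 genes, or 18.4%, against 11.7% of all genes. In 1 of them, Acta2, the Tg livers lay above the non-Tg livers (2.63%, against 6.04% of all genes), and in 6, Reln, Gas1, Col5a1, Fn1, Timp2 and Pdgfra, they lay below (15.8%, against 5.64%). For Gas1, Acta2 and Pdgfra the difference was also at least 1.5-fold, 3 genes or 7.89%, against 3.53% of all genes. Without Tg 5 the count was 8, or 21.1%, and did not exceed the 21.8% of all genes. The other omissions gave 14 without non-Tg 1 (36.8%, against 25.6% of all genes), 10 without non-Tg 2 (26.3%, against 18.6%), 11 without non-Tg 3 (28.9%, against 19.6%), 10 without Tg 6 (26.3%, against 20.4%) and 15 without Tg 7 (39.5%, against 27.1%). In all, 22 of the 38 genes were lower in Tg livers at any size (57.9%, against 47.9% of all genes), or 26 of 38 when each array was centred on its median (68.4%, against 59.6%), which moved the median of all genes from 0.01 to -0.06. The median log2 difference was -0.19, beside 0.01 over all genes, and it was -0.05 without non-Tg 2 and -0.10 without Tg 7. The list was drawn up with earlier results of these data known, so these shares describe it and do not test it.

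**Figure D1:**
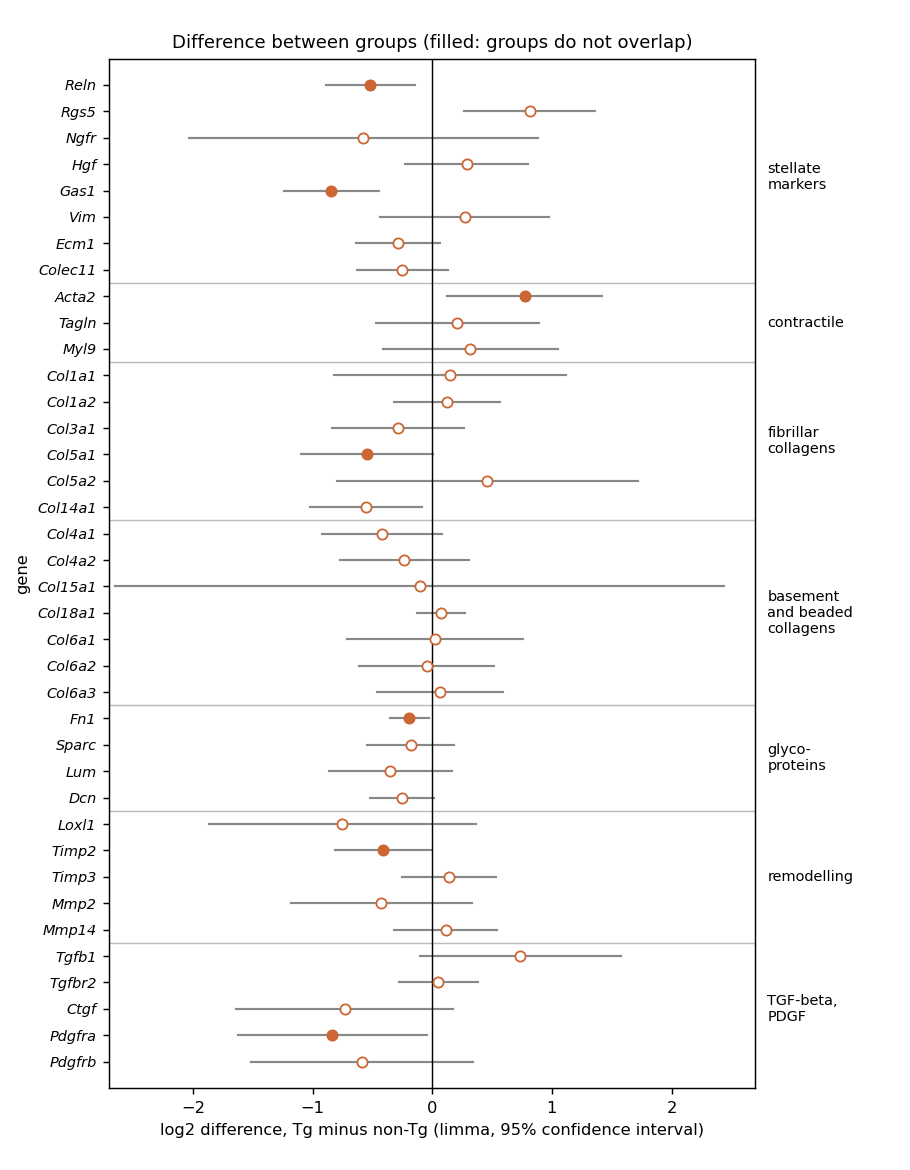
Log2 difference between Tg and non-Tg livers (x axis, limma estimate with its 95% confidence interval) for the 38 tested genes, grouped by class (y axis); filled points mark genes whose groups do not overlap. The 7 filled points are Acta2 on the higher side and Reln, Gas1, Col5a1, Fn1, Timp2 and Pdgfra on the lower side, and the widest interval is that of Col15a1.

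Among the stellate markers, Gas1 and Reln were lower in Tg livers and Rgs5 was higher. Gas1 encodes growth arrest-specific 1, a membrane-anchored protein that binds hedgehog ligands. Its log2 signal was 10.46, 9.94 and 9.77 in Tg 5, 6 and 7 and 10.88, 10.87 and 10.95 in non-Tg 1, 2 and 3. The non-Tg values lay within 0.08 of each other, and every Tg value was below them. The log2 difference was -0.84 ± 0.18 (SE), or 1.79-fold lower (95% confidence interval 1.36 to 2.36; limma adjusted p = 0.432), with an exact permutation p of 0.1, the smallest that 3 mice against 3 can give. A second Gas1 probe set differed by -0.48 ± 0.25 (SE), and on that one Tg 5, at 10.23, lay above non-Tg 2 and 3.

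Reln encodes reelin, a large secreted glycoprotein that marks stellate cells in the liver. It stood at 11.16, 10.92 and 11.51 in Tg livers and 11.57, 11.93 and 11.65 in non-Tg livers. The groups were apart by a narrow margin, Tg 7 being just under non-Tg 1. The log2 difference was -0.52 ± 0.17 (SE; adjusted p = 0.770 by limma). A dimmer second Reln probe set gave 0.89 ± 0.78 (SE), which turned the sign when probe sets were averaged (0.18).

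Rgs5, a regulator of G-protein signalling typical of pericytes, was at 11.35, 10.59 and 11.10 in Tg and 9.97, 10.69 and 9.93 in non-Tg livers. Only Tg 6 lay within the non-Tg range, just below non-Tg 2. The log2 difference was 0.81 ± 0.24 (SE), or 1.76-fold higher (95% confidence interval 1.2 to 2.57; limma adjusted p = 0.735). The other 3 Rgs5 probe sets above the filter gave 0.47, 0.69 and 0.56.

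The remaining stellate markers overlapped between groups. Ngfr, the low-affinity neurotrophin receptor, ran from 5.18 to 7.45 in Tg and from 6.56 to 8.21 in non-Tg livers, differing on the log2 scale by -0.58 ± 0.65 (SE), and it was 0.14 without Tg 7. Ecm1, a secreted matrix protein of quiescent stellate cells and hepatocytes, differed by -0.29 ± 0.16 (SE), and Colec11, a collectin, by -0.25 ± 0.17 (SE). Hgf, the hepatocyte growth factor that stellate cells supply, differed by 0.29 ± 0.23 (SE). Des encodes desmin, a defining stellate filament in rodents, yet its signal was dim: 6.78, 5.46 and 4.02 in Tg and 5.97, 5.28 and 5.59 in non-Tg livers.

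Vim, the intermediate filament of mesenchymal cells and leukocytes, was highest in Tg 6 at 11.15, with the other 5 mice between 9.74 and 10.23. The Vim difference was 0.27 ± 0.31 (SE), and without Tg 6 it was -0.14. In the same liver the 8 macrophage markers listed for this comparison summed to a signal of 42259, where the other Tg livers gave 16511 and 22992 and the non-Tg livers 20734 to 23849. All 8 were measured above the filter and none passed the test; their part in the Vim value was not tested.

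**Figure D2:**
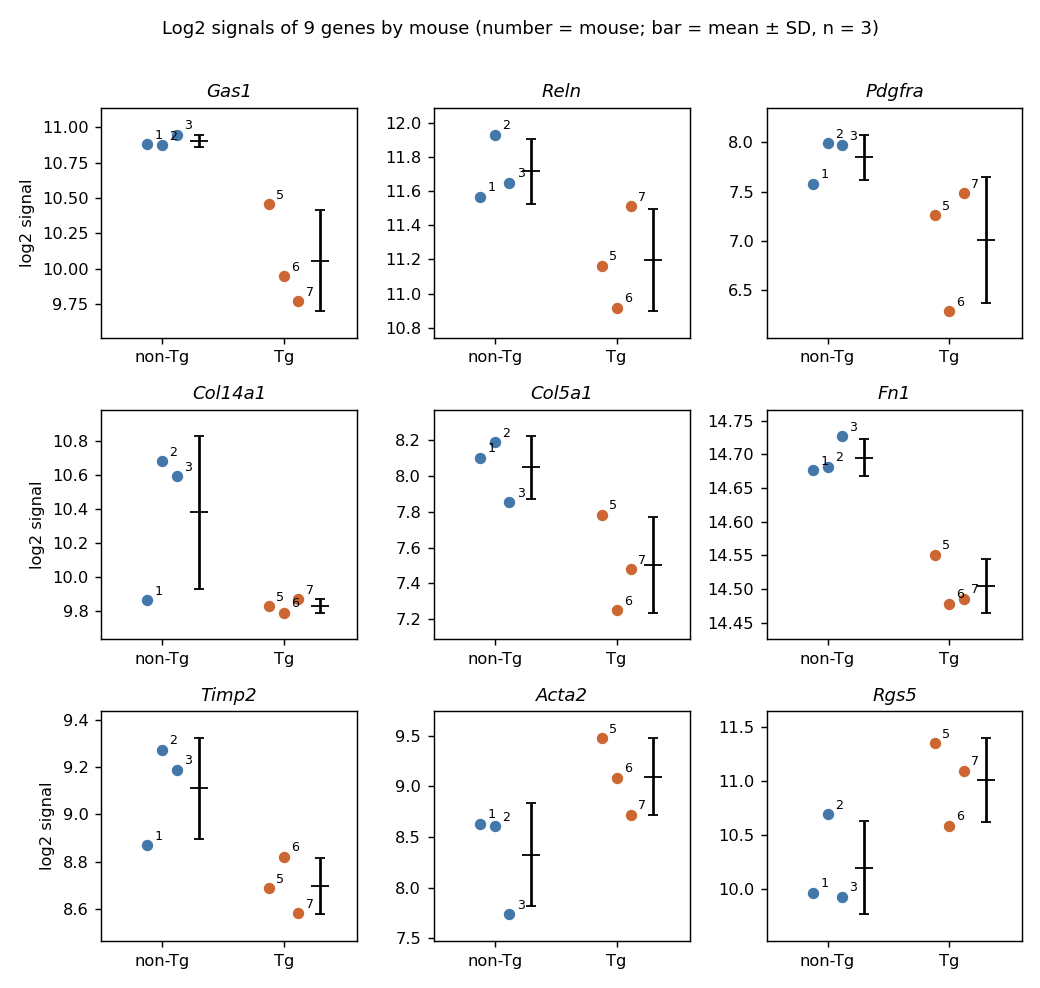
Log2 signal (y axis) of 9 genes in the 6 mice, non-Tg in blue and Tg in orange, with the mouse number beside each point and bars for mean ± SD (n = 3). The non-Tg Gas1 values bunch between 10.87 and 10.95 above every Tg value, while Col14a1 in non-Tg 1 sits with the Tg livers at 9.86.

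Other stellate markers outside the list, listed for this comparison, included 15 with a value, all above the filter. None passed the limma test in either direction, 5 were higher and 10 lower, with a median log2 difference of -0.22. Lrat, which esterifies retinol for storage, stood at 8.86, 8.16 and 8.92 in Tg and 9.14, 9.77 and 9.82 in non-Tg livers, differing on the log2 scale by -0.93 ± 0.26 (SE; adjusted p = 0.735 by limma). Lhx2, a transcription factor of quiescent stellate cells, stood at 6.73, 6.32 and 7.08 in Tg and 7.71, 7.33 and 7.67 in non-Tg livers, a difference of -0.86 ± 0.32 (SE; adjusted p = 0.787 by limma). The groups did not overlap for either gene. Notch3, a receptor of pericytes, was also free of overlap but with the Tg livers above, at 7.84, 8.05 and 7.84 against 7.43, 7.70 and 7.71, and Adamtsl2, a secreted matrix protein, had the largest difference on the higher side of these 15, at 0.56 ± 0.29 (SE) with overlap. Both were named after their values were seen. Tg 6 was the lowest mouse for Lrat, Lhx2, Reln and Pdgfra, while Tg 7 was the lowest for Gas1. Gfap, another classical stellate marker, differed by -0.01 ± 0.42 (SE).

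The contractile genes were higher in Tg livers on average, and 1 of the 3, Acta2, was free of overlap. Over all genes 11.7% were free of overlap, 6.04% with the Tg livers above, and 3 genes are too few to compare with these shares. Acta2 encodes alpha smooth muscle actin, the standard myofibroblast marker. Its log2 signal was 9.48, 9.09 and 8.72 in Tg 5, 6 and 7 and 8.63, 8.61 and 7.74 in non-Tg 1, 2 and 3. Tg 7 lay 0.09 above non-Tg 1, and non-Tg 3 was the low value of the series. The log2 difference was 0.77 ± 0.29 (SE), or 1.71-fold higher (95% confidence interval 1.09 to 2.67; limma adjusted p = 0.787), and 0.48 without non-Tg 3. The Acta2 probe set is of the Affymetrix kind that can match several related transcripts.

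Tagln encodes transgelin (SM22), an actin-binding protein, and stood at 8.08, 7.85 and 7.37 in Tg and 7.70, 7.88 and 7.09 in non-Tg livers. Myl9, the regulatory myosin light chain, stood at 8.09, 7.27 and 7.33 in Tg and 7.26, 7.57 and 6.91 in non-Tg livers. Both overlapped between groups, at log2 differences of 0.21 ± 0.30 and 0.32 ± 0.33 (SE), and Tagln turned to -0.02 without non-Tg 3. All 3 contractile genes were highest in Tg 5 and lowest in non-Tg 3.

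Smooth muscle markers were measured beside them, since vessels hold the same proteins. Of 6 such markers (Myh11, Cnn1, Actg2, Smtn, Lmod1 and Synpo2) 5 lay below the filter, and Smtn differed by 0.90 ± 0.58 (SE). Their summed signal ran from 235 to 464 in Tg and from 148 to 361 in non-Tg livers, lowest in non-Tg 3. Myh11, the smooth muscle myosin, was at 1.87 in non-Tg 3 and between 5.96 and 6.74 in the other 5 mice. Actg2, also below the filter, was at 6.90, 6.72 and 5.36 in Tg and 3.23, 4.99 and 4.75 in non-Tg livers without overlap. Synpo2 alone of these markers was lower in Tg livers, at a log2 difference of -0.23. Portal fibroblast markers, 9 genes with 6 above the filter, summed to 1728 in Tg 5, where the other Tg livers gave 964 and 1169 and the non-Tg livers 875 to 1170. The part of these cells in the contractile values was not tested.

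Transcription of contractile genes runs through the CArG box, a 10-base element bound by serum response factor. The 250 bases before the RefSeq start (build GRCm38.p6) are shown for Acta2 and Myl9, which were highest and lowest in the same mice, and for Gas1, the stellate gene with the smallest p. Capitals mark each match to the CArG box with at most 1 mismatch, on either strand.
Acta2, chr19:34255374-34255623, minus strand: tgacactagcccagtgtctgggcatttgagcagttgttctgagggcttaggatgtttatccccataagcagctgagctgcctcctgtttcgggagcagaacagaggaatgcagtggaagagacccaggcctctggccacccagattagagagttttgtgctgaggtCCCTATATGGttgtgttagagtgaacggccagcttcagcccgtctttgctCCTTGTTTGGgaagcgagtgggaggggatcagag
Myl9, chr2:156775214-156775463, plus strand: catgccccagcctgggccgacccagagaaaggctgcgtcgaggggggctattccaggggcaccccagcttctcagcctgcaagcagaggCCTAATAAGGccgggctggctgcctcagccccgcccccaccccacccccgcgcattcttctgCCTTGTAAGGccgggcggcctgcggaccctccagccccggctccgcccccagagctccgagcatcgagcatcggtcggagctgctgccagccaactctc
Gas1, chr13:60177536-60177785, minus strand: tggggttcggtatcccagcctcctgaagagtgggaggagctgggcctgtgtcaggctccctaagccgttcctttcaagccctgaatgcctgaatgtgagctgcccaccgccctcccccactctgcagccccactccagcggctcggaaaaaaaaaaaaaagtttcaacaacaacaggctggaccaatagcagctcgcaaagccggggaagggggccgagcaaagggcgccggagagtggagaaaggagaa
In Acta2 the matches CCCTATATGG and CCTTGTTTGG begin 84 and 34 bases before the start, each with 1 mismatch. In Myl9, CCTAATAAGG is an exact match that begins 161 bases before the start, and CCTTGTAAGG has 1 mismatch. The Gas1 window holds none. Matches with at most 1 mismatch are not limited to contractile genes: the Col1a2 and Mmp14 windows hold 2 each, and those of the stellate markers Colec11 and Ecm1 hold 1 each. No window was found for Tagln. Over all 32851 RefSeq promoter windows of that length, 1.47% hold an exact CArG box and 18.6% one with at most 1 mismatch; over the 33 windows found for 30 genes of the list, these shares were 3.03% and 27.3%. These matches describe the letters of the windows only.

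**Figure D3:**
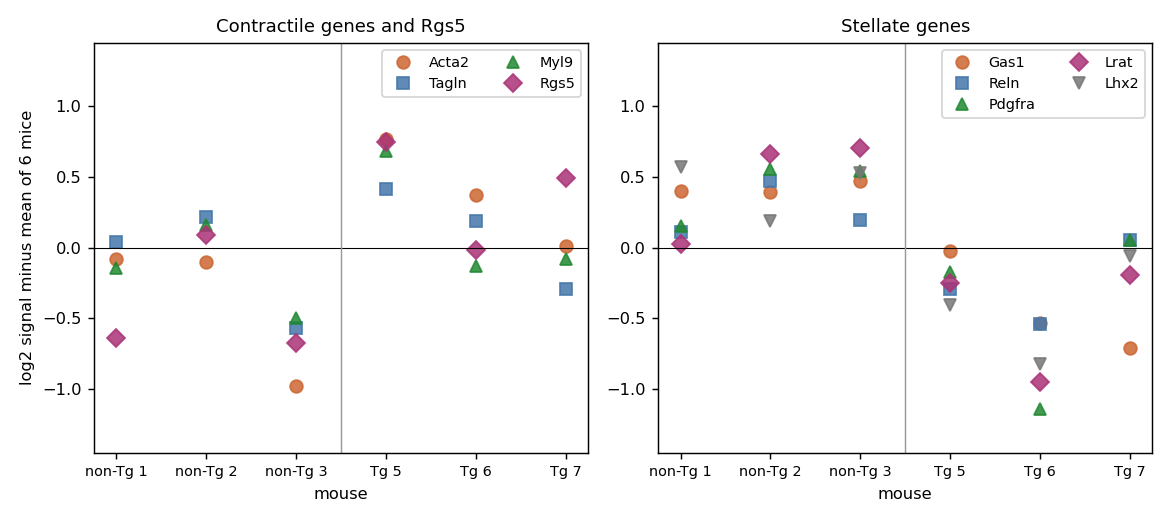
Log2 signal relative to each gene's mean over the 6 mice (y axis) by mouse (x axis), for the contractile genes and Rgs5 on the left and for Gas1, Reln, Pdgfra, Lrat and Lhx2 on the right. On the left Tg 5 is the highest mouse for each gene and non-Tg 3 the lowest. On the right the non-Tg mice lie above the Tg mice for each gene. The genes shown on the right are all without overlap and lower in Tg livers, so this separation follows from the choice of genes. Among the stellate markers tested, 3 of 8 in the list, Rgs5 included, and 5 of 15 outside it were higher in Tg livers.

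The fibrillar collagens showed no common direction: 3 were higher and 3 lower in Tg livers, with a median log2 difference of -0.08. Collagen I, the main collagen of scar tissue, is built from the products of Col1a1 and Col1a2. Col1a1 stood at 8.24, 8.03 and 6.74 in Tg and 6.89, 7.93 and 7.74 in non-Tg livers, so that each group held low and high mice. Col1a2 stood at 9.65, 9.65 and 9.49 in Tg and 9.07, 9.81 and 9.52 in non-Tg livers. The log2 differences were 0.15 ± 0.43 for Col1a1 and 0.13 ± 0.20 for Col1a2 (SE), with 95% confidence intervals of -0.82 to 1.12 and -0.32 to 0.57. A second Col1a1 probe set gave -0.55 ± 0.36 (SE), and a second Col1a2 probe set 0.74 ± 0.51 (SE).

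Col3a1, which forms thin fibrils with collagen I, stood at 10.73, 10.57 and 10.33 in Tg and 10.48, 11.47 and 10.54 in non-Tg livers. Apart from the high value of non-Tg 2 the 6 livers lay within 0.40 of each other. The log2 difference was -0.28 ± 0.25 (SE), and 0.04 without non-Tg 2. Its direct neighbour on the chromosome, Col5a2, went the other way, at 0.46 ± 0.56 (SE), with 8.64 in Tg 5 and 6.24 in Tg 7, and it was -0.06 without Tg 5.

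Col5a1 and Col14a1 lay further below 0 than Col3a1, the other lower gene of this class. Col5a1, a chain of the collagen V that starts fibrils, stood at 7.78, 7.25 and 7.48 in Tg and 8.10, 8.19 and 7.85 in non-Tg livers. Its groups did not overlap, with a log2 difference of -0.54 ± 0.25 (SE; adjusted p = 0.807 by limma), and a second probe set gave -0.28 ± 0.34 (SE). Col14a1, a fibril-associated collagen of liver mesenchyme, stood at 9.83, 9.79 and 9.87 in Tg and 9.86, 10.68 and 10.60 in non-Tg livers. The Tg mice were alike and non-Tg 1 lay among them, so the log2 difference of -0.55 ± 0.21 (SE; adjusted p = 0.787 by limma) came from non-Tg 2 and 3. A second Col14a1 probe set gave -0.39 ± 0.19 (SE).

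Basement membrane and beaded-filament collagens had the class median nearest to 0, at -0.05 over 7 genes, 3 higher and 4 lower. No class member was free of overlap on the probe set that stands for it, against 11.7% of all genes. Col4a1 and Col4a2, the chains of the main basement membrane collagen, lie next to each other in the genome. They differed by -0.42 ± 0.22 and -0.23 ± 0.24 (SE), and both were highest in non-Tg 2 and lowest in Tg 7. Col4a2 was 0.03 without non-Tg 2. A second Col4a1 probe set differed by only -0.10 ± 0.15 (SE). On it the groups did not overlap, by a very narrow margin, with Tg 5 at 9.159 and non-Tg 3 at 9.164. The beaded-filament chains Col6a1, Col6a2 and Col6a3 differed by 0.02 ± 0.33, -0.05 ± 0.25 and 0.06 ± 0.24 (SE). Col6a1 was -0.05 and Col6a3 -0.01 when arrays were centred on their medians.

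Col18a1, the source of endostatin, was even across the 6 livers, at 13.63 to 13.87, with a log2 difference of 0.07 ± 0.09 (SE; 95% confidence interval -0.13 to 0.27), or -0.0019 under median centring. Col15a1, a basement membrane collagen of vessels, had the largest SE of the 38 tested genes. It stood at 7.20, 6.71 and 3.45 in Tg and 7.09, 3.88 and 6.70 in non-Tg livers, so that 1 mouse of each group was near the level of dim probe sets and the other 4 were not. The log2 difference of -0.10 ± 1.14 (SE) has no direction to read, since it was 1.06 without Tg 7 and -1.11 without non-Tg 2.

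**Figure D4:**
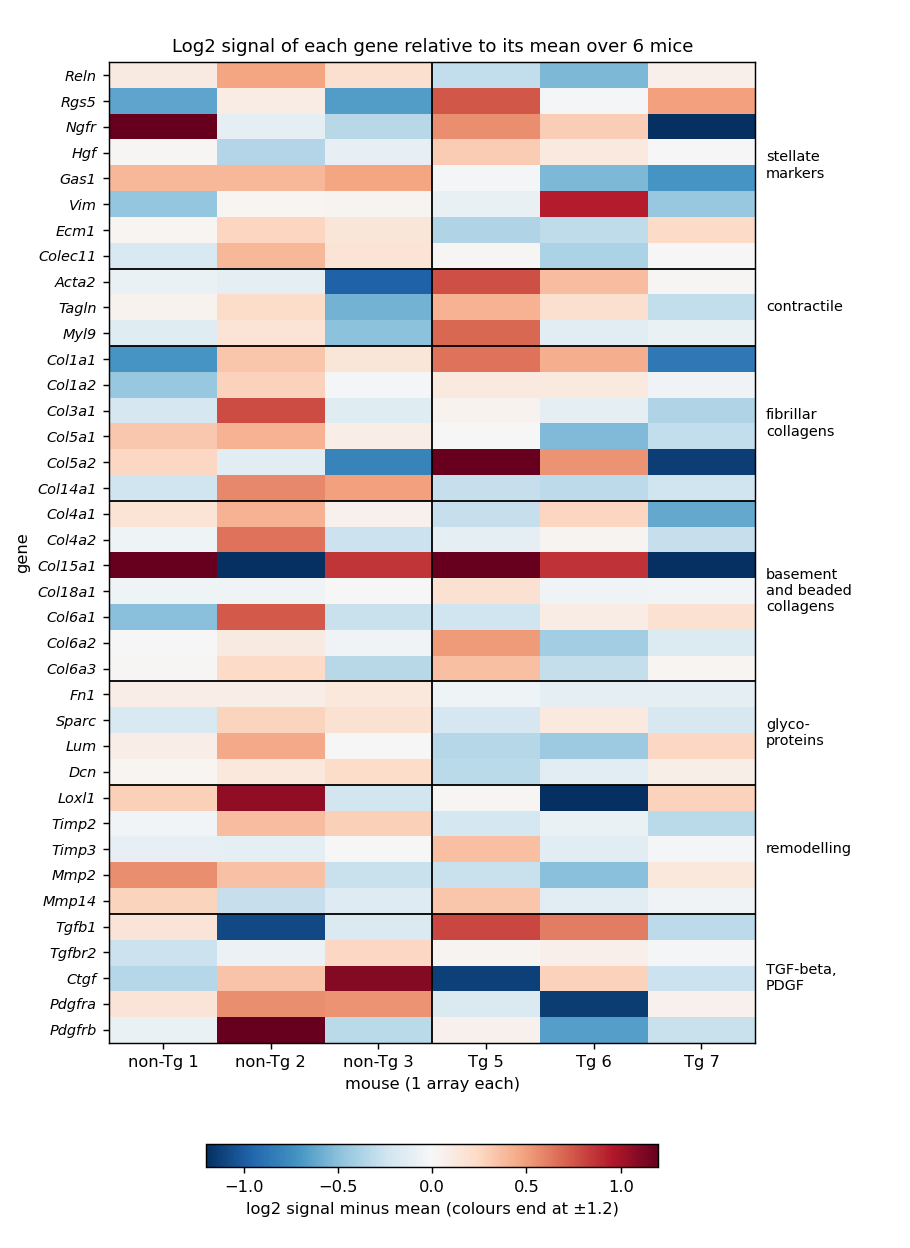
Log2 signal of each tested gene minus its mean over the 6 mice (colour, ending at ±1.2) by gene and class (rows) and mouse (columns). Non-Tg 2 holds the highest value for 16 of the 38 genes and Tg 5 for 14, while Tg 7 holds none.

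The 4 matrix glycoproteins and proteoglycans with a tested value were each lower in Tg livers, by a median of 0.22 on the log2 scale. Fn1, fibronectin, stood at 14.55, 14.48 and 14.49 in Tg and 14.68, 14.68 and 14.73 in non-Tg livers. The spread within either group was under the gap between them, and the log2 difference of -0.19 ± 0.07 (SE; adjusted p = 0.787 by limma) equals 1.14-fold (95% confidence interval 1.02 to 1.28). A second, dimmer Fn1 probe set also had no overlap, at -0.66 ± 0.25 (SE), but by a very narrow margin. On it Tg 6 stood at 9.488 and non-Tg 2 at 9.492. Fn1 is chiefly a hepatocyte product; of 6 hepatocyte markers 4 were higher and 2 lower, with Alb at a log2 difference of -0.04 ± 0.07 (SE), while Tat, a liver enzyme that glucocorticoids induce, was at 1.12 ± 0.24 (SE; adjusted p = 0.468 by limma).

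Dcn and Lum, small leucine-rich proteoglycans that bind collagen fibrils, are adjacent genes. Decorin stood at 12.37, 12.57 and 12.77 in Tg and 12.72, 12.83 and 12.92 in non-Tg livers, differing on the log2 scale by -0.25 ± 0.12 (SE), with Tg 7 above non-Tg 1. Lumican differed by -0.35 ± 0.23 (SE), again with Tg 7, at 9.10, inside the non-Tg range. Sparc, a calcium-binding matricellular protein, differed by -0.18 ± 0.16 (SE) on 1 probe set, by -0.08 on another and by -0.94 ± 0.36 (SE) on the dimmest.

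Genes of crosslinking and remodelling had a median of -0.41 over 5 tested genes, 2 higher and 3 lower. That median is the value of 1 Timp2 probe set, which the other Timp2 probe sets did not share. Lox and Loxl1 are lysyl oxidases, which crosslink collagen and elastin. Lox was dim, at 2.39, 3.80 and 2.73 in Tg and 6.23, 5.64 and 5.15 in non-Tg livers; it had no overlap but lay under the filter, and over all genes without a filter its limma adjusted p was 0.745. A log2 difference of -2.7 so near the bottom of the scale cannot be read as a fold change. Loxl1 differed by -0.75 ± 0.50 (SE), with the low value of 5.79 in Tg 6, and by -0.23 without that mouse.

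The tissue inhibitors of metalloproteinases were mixed. Timp1, the inhibitor best known from activated stellate cells, was dim in both groups, at 5.77, 4.85 and 1.53 in Tg and 6.46, 5.17 and 5.84 in non-Tg livers. Timp2 stood at 8.69, 8.82 and 8.58 in Tg and 8.87, 9.27 and 9.19 in non-Tg livers, differing on the log2 scale by -0.41 ± 0.18 (SE; adjusted p = 0.807 by limma). The groups did not overlap on that probe set, but the other 3 Timp2 probe sets above the filter gave 0.20, 0.10 and -0.06, and their mean with it was -0.04. Timp3 differed by 0.14 ± 0.17 (SE), or -0.01 without Tg 5, and its other probe sets ran from -0.07 to 0.95.

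Mmp2, a gelatinase, differed by -0.43 ± 0.34 (SE) on 1 probe set and by 0.94 ± 0.44 on another of nearly the same mean signal. No direction can be given for it. Mmp14, the membrane protease that activates pro-MMP2, differed by 0.11 ± 0.19 (SE), or -0.03 without Tg 5, and its other 2 probe sets gave 0.39 and 0.69.

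**Figure D5:**
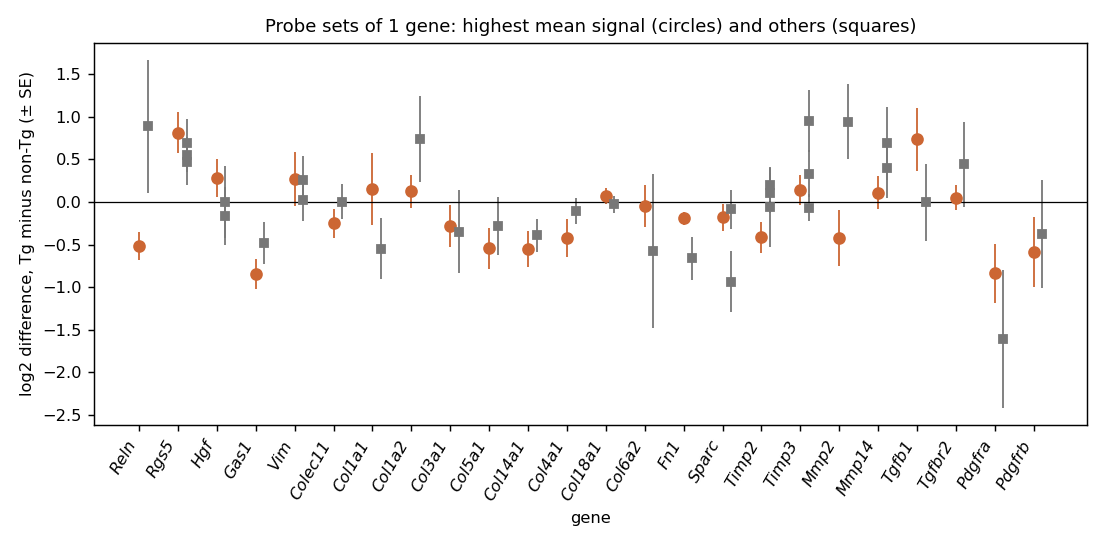
Log2 difference between Tg and non-Tg livers (y axis, ± SE) for each probe set above the filter of the 24 tested genes with several (x axis); circles are the probe sets that stand for the gene and squares the others. For Reln, Mmp2 and Col1a1 circle and square lie on opposite sides of 0, while those of Rgs5, Gas1, Fn1 and Pdgfra lie on 1 side.

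The agreement of probe sets bears on how far single genes can be read. Of the 38 genes, 14 had 1 probe set above the filter and 24 had several. For 15 of the 24 each further probe set had the sign of the first, and for 9 at least 1 did not: Reln, Hgf, Colec11, Col1a1, Col18a1, Timp2, Timp3, Mmp2 and Tgfb1.

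Signals of TGF-beta and PDGF pointed in different directions. Tgfb1, the ligand that drives matrix synthesis, stood at 9.05, 8.86 and 7.93 in Tg and 8.40, 7.16 and 8.07 in non-Tg livers. Tg 7 lay below 2 of the non-Tg livers, and the log2 difference was 0.73 ± 0.38 (SE; adjusted p = 0.816 by limma). A second Tgfb1 probe set gave 0.00 ± 0.45 (SE). Tgfbr2, the type II receptor, differed by 0.05 ± 0.15 (SE; -0.03 under median centring). Ctgf, a matricellular target of TGF-beta, stood at 7.82, 9.21 and 8.68 in Tg and 8.60, 9.28 and 10.04 in non-Tg livers, differing on the log2 scale by -0.73 ± 0.41 (SE) with overlap.

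Pdgfra, the PDGF receptor that marks quiescent stellate cells and fibroblasts in the liver, stood at 7.26, 6.29 and 7.49 in Tg and 7.58, 7.99 and 7.97 in non-Tg livers. The groups did not overlap, though Tg 7 lay 0.10 under non-Tg 1. The log2 difference was -0.84 ± 0.35 (SE), or 1.78-fold lower (95% confidence interval 1.03 to 3.08; limma adjusted p = 0.807), and it was -0.47 without Tg 6. A second Pdgfra probe set gave -1.61 ± 0.81 (SE), but with overlap. Its mean log2 signal of 5.71 was close to the filter at 5.63, and Tg 7 stood at 3.25. Pdgfrb, the receptor of pericytes and stellate cells, differed by -0.59 ± 0.41 (SE) on account of non-Tg 2, at 8.96, and by -0.09 without it.

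The wider pathway gave 0 genes past the adjusted limma threshold in either direction. Of 21 tested TGF-beta pathway genes outside the list 9 were higher and 12 lower, with a median of -0.06. None of them had an unadjusted limma p under 0.05, against 6.05% of all genes. The 4 tested PDGF ligands, Pdgfa, Pdgfb, Pdgfc and Pdgfd, lay between -0.08 and 0.26. Enzymes and chaperones of collagen folding and processing, 13 genes, had a median of 0.02, with the collagen chaperone Serpinh1 at -0.04 ± 0.31 (SE). A further 7 collagens had a median of 0.17, 5 of them higher.

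Among 26 other matrix proteins 10 were higher and 16 lower, with a median of -0.05. Fbln1, a basement membrane and elastic fibre protein, was the 1 gene of these 26 at an unadjusted limma p under 0.05, where 6.05% of all genes lay. It stood at 7.97, 7.50 and 7.46 in Tg and 6.58, 6.27 and 7.10 in non-Tg livers without overlap, a log2 difference of 1.00 ± 0.34 (SE; adjusted p = 0.779 by limma). Of 12 further matrix enzymes and inhibitors 8 were lower and 4 higher, with a median of -0.27. Adamts5 was higher without overlap, at a log2 difference of 0.59 ± 0.32 (SE). At an unadjusted limma p under 0.05 stood 2 of the 12, both lower, where 6.05% of all genes lay. Mmp9, a gelatinase of leukocytes, was at 3.51, 5.29 and 6.51 in Tg and 7.78, 6.64 and 6.54 in non-Tg livers, and Plat, the tissue plasminogen activator, differed by -1.58 ± 0.67 (SE). Both were dim in at least 1 mouse, and their limma adjusted p was 0.807.

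Most of the highest values fell to 2 livers, 1 of each group. Non-Tg 2 held the highest value of the 6 for 16 of the 38 genes (42.1%, against 16.2% of all genes), among them Col3a1, Col4a1, Col4a2, Pdgfrb and Loxl1. Tg 5 held it for 14 (36.8%, against 22.9%), among them the contractile genes, Rgs5, Col1a1, Col5a2 and Tgfb1. Tg 7 held it for 0 of 38 (0%, against 16.2%). The lowest value fell to Tg 6 for 12 genes (31.6%, against 17.7%) and to Tg 7 for 9 (23.7%, against 16.7%). Endothelial markers, 10 genes, summed to 12099 to 13509 in Tg and 12611 to 13102 in non-Tg livers, and mesothelial markers, 5 genes with 3 below the filter, to 250.4 to 291 and 266 to 605, the highest being non-Tg 2. Their part in these patterns was not tested.

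The arrays fell into 2 sets by the signal of bioC, a bacterial transcript added as a hybridization control: non-Tg 1, Tg 5 and Tg 6 at log2 9.57 to 9.71, and non-Tg 2, non-Tg 3 and Tg 7 at 11.0 to 11.3. Within both sets 15 of the 38 genes were lower in Tg livers (39.5%, against 27.1% of all genes) and 7 higher (18.4%, against 26.9%). The lower ones include Gas1 (-0.68 and -1.14), Reln (-0.53 and -0.28), Col5a1 (-0.59 and -0.54), Pdgfra (-0.81 and -0.50), Fn1 (-0.16 and -0.22) and Timp2 (-0.11 and -0.65). The higher ones include Rgs5 (1.00 and 0.79), Acta2 (0.65 and 0.55) and Tgfb1 (0.56 and 0.31). Gas1, Reln, Col5a1, Pdgfra, Fn1, Timp2 and Acta2 had no overlap between groups, which fixes their sign within both sets. For them the same sign in both sets is therefore no further check. Each set also held a single mouse of 1 group, non-Tg 1 or Tg 7. With the sets as a block Gas1 differed by -0.91 (limma adjusted p = 0.372), Acta2 by 0.60, Rgs5 by 0.89, and none of the 38 genes passed. Col1a1 went in opposite directions in the sets, at 1.25 and -1.09.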

How the data were processed

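Signals on an Affymetrix mouse genome array were deposited by the authors on a log2 scale, 1 per probe set and mouse, and came from GCOS per the submitters' processing notes. Its version, summary algorithm and scaling target were not given in the sources used here. On each of the 6 arrays the mean antilogged signal with 2% trimmed per end was 500.0, so they had been scaled alike. Array medians lay between 6.49 and 6.74 (log2), no arrays were identical, and no detection calls or scanner files were used; the number of arrays limits the precision.

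Of 45101 probe sets, 64 were controls and 34945 had 1 gene symbol. Nothing was added before the log. Probe sets with a mean above log2 5.63 were kept, the one with the highest mean stood for a gene, and 12705 genes were compared with limma 3.58.1 (R 4.3.3, lmFit and eBayes with trend, 2-sided, Benjamini-Hochberg, threshold 0.05). SD is over 3 mice; SE and intervals are limma's. Marker sums are of antilogged signals. The limma step alone was run on simulated data, without the filter, the choice of probe sets or the counts of overlap.

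The genes, classes, marker lists and the split of arrays by bioC were chosen with earlier results of these data known. The genes given in full are those at an unadjusted p under 0.05 or without overlap at 1.5-fold or more, and reference markers; from other lists, at most 3 with an unadjusted p under 0.05. Others named were chosen after their values were seen. Figures used matplotlib 3.10.9 under Python 3.11.15. Promoter sequences are from RefSeq, GRCm38.p6.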

Additional observations from a re-analysis of the deposited data

How the results depend on the processing

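Over the 20 alternatives (other filters, 16 or 64 added before the log, quantile normalization, median centring, limma without trend, with robust variance or array weights, other rules for probe sets, each gene's own variance, the bioC sets as a block, and each mouse left out) 0 of the genes passed the adjusted threshold; with each gene's own variance 0 of all 12705 genes did. No paired analysis was run, because the sample labels give no pairing of mice between the groups. Leaving out a mouse moved the count of genes without overlap, 7 of 38, to between 8 and 15 (8 without Tg 5, 15 without Tg 7, 14 without non-Tg 1, 11 without non-Tg 3), while the share over all genes moved from 11.7% to between 18.6% and 27.1%. The median log2 difference ran from -0.21 without non-Tg 1 to -0.046 without non-Tg 2. Of 758 single-gene values under an alternative, 719 kept their direction and 39 turned. Outside the omission of mice, signs turned for Col15a1 (0.0030 with 64 added, 0.24 with array weights), Col6a1 (-0.019 with quantile normalization, -0.054 with median centring, -0.027 with array weights), Col18a1 (-0.0019), Col6a3 (-0.011) and Tgfbr2 (-0.025) with median centring, for Reln (0.18), Col1a1 (-0.20) and Mmp2 (0.26) with the mean of probe sets, and for Reln (0.89), Hgf (-0.0032), Col18a1 (-0.024) and Mmp2 (0.94) with the most variable probe set. With 1 mouse left out, differences ran from -1.0 to 0.14 for Ngfr, -0.14 to 0.56 for Vim, -0.025 to 0.41 for Tagln, -0.16 to 0.62 for Col1a1, -0.072 to 0.30 for Col1a2, -0.46 to 0.036 for Col3a1, -0.061 to 1.14 for Col5a2, -0.42 to 0.035 for Col4a2, -1.11 to 1.06 for Col15a1, -0.22 to 0.39 for Col6a1, -0.31 to 0.15 for Col6a2, -0.10 to 0.22 for Col6a3, -0.0066 to 0.24 for Timp3, -0.026 to 0.27 for Mmp14 and -0.066 to 0.18 for Tgfbr2. Gas1 ran from -1.04 without Tg 5 (limma adjusted p = 0.0541) to -0.66 with the mean of probe sets, Acta2 from 0.48 to 0.96 and Rgs5 from 0.63 to 1.06. The causes were not tested.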

Other observations

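Markers of other cells at the liver surface and in the portal tracts gave a few further differences. Upk3b, a uroplakin of mesothelium, was at 3.22, 3.41 and 4.52 in Tg and 7.14, 7.24 and 5.72 in non-Tg livers without overlap, but its mean lay below the filter. Wt1, another mesothelial marker below the filter, went the other way, at a log2 difference of 0.92, and Lrrn4 was at -0.06. Thy1, a portal fibroblast marker, was at 8.02, 7.95 and 6.77 in Tg and 7.45, 6.49 and 4.63 in non-Tg livers, with overlap. It was lowest in non-Tg 3, as were Acta2 and Myh11. Of the 6 portal fibroblast markers above the filter, 3 were higher and 3 lower in Tg livers, with a median log2 difference of -0.0036. Bile duct markers, 4 genes with a value, summed to 241 to 462 in Tg and 350 to 552 in non-Tg livers. The single genes named here were chosen after their values were seen.

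For 8 of the 38 genes the 2 sets of arrays did not overlap (21.1%, against 19.8% of all genes): Ngfr, Hgf, Ecm1, Col5a2, Col14a1, Col15a1, Dcn and Tgfb1. Ngfr was at 8.21, 7.45 and 7.19 in non-Tg 1, Tg 5 and Tg 6 and at 6.78, 6.56 and 5.18 in non-Tg 2, non-Tg 3 and Tg 7, and with the sets as a block it differed between Tg and non-Tg livers by -1.19 ± 0.37 (SE) and did not pass the test.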
